A study of Mus musculus with 16 samples.

Results

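The genes followed here encode the transforming growth factor beta (TGF-beta) ligands (Tgfb1, Tgfb2 and Tgfb3), their receptors (Tgfbr1, Tgfbr2 and Tgfbr3) and the latent TGF-beta binding proteins (Ltbp1, Ltbp2, Ltbp3 and Ltbp4). They are 10 of the 33641 gene symbols in the deposited tables and were chosen by symbol, with earlier results of these data known. Each of the 10 was present, and each averaged 1 TPM or more in every comparison below, which was the filter on low values. In heart Ltbp2 passed it through its high KO hearts alone, since its WT mean was under 1 TPM. TPM scales the abundance of a transcript by its length and to the same total in every library, so levels can be set side by side between genes.

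RNA was sequenced from whole tissue of mice of strain C57BL/6J aged 28 weeks. The mice carried the label Adipo-HuR KO (called KO below) or wild-type (WT). KO stands for a deletion meant for adipocytes alone of HuR, the product of Elavl1, which binds messenger RNA. The left ventricle gave 4 KO libraries (mice A25, A29, A30 and A31) and 4 WT libraries (A5, A7, A8 and A14). Subcutaneous white adipose tissue (scWAT) gave 3 KO libraries (A24, A26 and A30) and 5 WT libraries (A5, A7, A8, A12 and A14). The 16 libraries came from 11 mice, of which 4 WT and 1 KO gave both tissues. The promoter behind the recombinase and the floxed allele were not given in the sources used here. Whole scWAT also holds cells that are not adipocytes.

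Elavl1 was not lower in KO scWAT. It was at 42.9, 42.0 and 36.2 TPM in KO scWAT, against 33.4, 34.5, 27.6, 19.5 and 19.0 TPM in WT scWAT, so the deletion was not visible at the level of the whole tissue and the groups below are groups by label. Cardiomyocyte markers summed to at least 21246 TPM in every heart library, and adipocyte markers to at least 42871 TPM in every scWAT library, as the labelled tissues require. Of the KO hearts, A29 stood apart: over 11981 genes it was most like the WT heart A5 (r = 0.990), while A25, A30 and A31 were each most like another KO heart. The match was mutual, since A5 was also most like A29 and not another WT heart. A5 and A29 had the fewest genes at 1 TPM or more of all hearts (10354 and 10846). Their shares of mitochondrially encoded transcripts, 60.6% and 55.7% of TPM, were the highest. By likeness both A5 and A29 thus went against their labels, and heart results are given with and without A29. That choice was made because A29 lacked differences the other KO hearts showed, so results without A29 describe A25, A30 and A31 and are no independent test of the label. In KO scWAT, A26 alone held many lymphocyte transcripts (B cell markers summed to 437 TPM, against at most 19.3 TPM in any other scWAT library).

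TGF-beta ligands are secreted bound to their own propeptide, which keeps them inactive until integrins or proteases free them. The latent complex is tied to the extracellular matrix by binding proteins of the LTBP family, whose members also help to build microfibrils and elastic fibres. Freed ligand joins a type II and a type I receptor kinase, and the type I kinase phosphorylates SMAD proteins that drive matrix genes. In heart and fat this pathway is best known for turning fibroblasts into matrix-producing cells.

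Promoters at hand of the members that were above every WT heart in 3 of 4 KO hearts are shown first, with Tgfb1, which was not, for comparison. They are RefSeq sequences of build GRCm38.p6, from 250 bases before to 50 bases after the annotated start, written 5′ to 3′ on the strand of the gene. RefSeq promoters were found for 8 of the 10 genes, and none was at hand for Tgfb3 or Tgfbr3. Capitals mark the core of a SMAD-binding element, GTCT or its complement AGAC.
Ltbp2, chr12:84876442-84876741, - strand: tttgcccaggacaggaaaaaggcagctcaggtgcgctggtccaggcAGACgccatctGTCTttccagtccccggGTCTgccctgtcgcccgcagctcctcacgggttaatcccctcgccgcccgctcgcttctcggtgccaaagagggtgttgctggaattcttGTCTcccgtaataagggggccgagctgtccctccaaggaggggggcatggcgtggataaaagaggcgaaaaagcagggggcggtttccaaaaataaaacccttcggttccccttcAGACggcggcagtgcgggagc
Tgfb2, chr1:186705940-186706239, - strand: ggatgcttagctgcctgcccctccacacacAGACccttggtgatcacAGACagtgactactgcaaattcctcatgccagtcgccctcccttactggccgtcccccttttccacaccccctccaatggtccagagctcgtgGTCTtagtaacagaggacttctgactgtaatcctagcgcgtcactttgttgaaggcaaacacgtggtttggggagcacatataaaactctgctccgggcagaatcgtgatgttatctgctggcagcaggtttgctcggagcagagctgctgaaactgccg
Tgfbr2, chr9:116175314-116175613, - strand: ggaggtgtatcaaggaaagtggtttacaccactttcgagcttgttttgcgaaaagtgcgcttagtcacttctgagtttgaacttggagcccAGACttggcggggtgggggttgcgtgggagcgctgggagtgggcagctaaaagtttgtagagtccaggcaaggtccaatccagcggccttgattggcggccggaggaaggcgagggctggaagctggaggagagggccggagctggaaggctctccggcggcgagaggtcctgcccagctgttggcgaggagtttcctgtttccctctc
Tgfbr1, chr4:47352972-47353271, + strand: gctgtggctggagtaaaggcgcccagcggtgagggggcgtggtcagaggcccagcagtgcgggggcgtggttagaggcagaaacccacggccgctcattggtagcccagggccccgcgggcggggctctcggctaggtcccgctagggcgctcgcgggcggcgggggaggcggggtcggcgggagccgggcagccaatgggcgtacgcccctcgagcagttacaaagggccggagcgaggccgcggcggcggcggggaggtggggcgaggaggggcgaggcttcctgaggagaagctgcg
Ltbp3, chr19:5740650-5740949, + strand: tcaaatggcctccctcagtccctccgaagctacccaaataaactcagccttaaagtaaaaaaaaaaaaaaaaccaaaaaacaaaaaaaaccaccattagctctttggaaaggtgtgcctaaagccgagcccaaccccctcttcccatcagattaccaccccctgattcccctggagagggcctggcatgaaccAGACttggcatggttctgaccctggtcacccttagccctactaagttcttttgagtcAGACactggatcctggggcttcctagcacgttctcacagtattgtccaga
Tgfb1, chr7:25686752-25687051, + strand: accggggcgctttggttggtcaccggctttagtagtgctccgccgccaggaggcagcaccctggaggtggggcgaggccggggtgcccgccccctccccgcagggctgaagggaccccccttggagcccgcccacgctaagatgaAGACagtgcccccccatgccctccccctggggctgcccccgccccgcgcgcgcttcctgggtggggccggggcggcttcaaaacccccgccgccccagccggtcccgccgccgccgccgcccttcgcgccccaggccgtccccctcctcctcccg

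The Ltbp2 promoter held the core 5 times, Tgfb2 3 times, Ltbp3 2 times, Tgfbr2 and Tgfb1 once each, and the first of 2 annotated Tgfbr1 starts held none. Among 32851 mouse promoters of the same length, 88.0% held the core at least once, with a median of 2 and a 90th percentile of 4 per promoter. The palindrome GTCTAGAC (0.213% of all promoters, with both half-sites counted as cores too) was in none of these 6 windows. The AP-1 site TGANTCA (7.81%) was found once, in Ltbp3, where it began 6 bases before the start. A TATA box, TATAAA (13.6% of all promoters), stood in Tgfb2 alone, where it began 31 bases before the start. The GC box GGGCGG (35.7%) was found 6 times in Tgfb1, 2 times each in Tgfbr1 and Ltbp2, and not in the other windows. The CCAAT box (37.4%) was found 2 times each in Tgfbr1 and Tgfbr2, 1 time in Tgfb2 and not in the other windows. All motifs were searched on both strands, and a match is a description of these letters only.

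In the left ventricle, 3 of 4 KO hearts held more Ltbp2, Ltbp3, Tgfb2, Tgfb3, Tgfbr1 and Tgfbr2 than any WT heart, while A29 lay at or below WT levels. Tgfb1, Ltbp4 and Ltbp1 did not separate the groups, and Tgfbr3 was lowest in A25 and A31. The comparison asks whether the pathway differs in the hearts of mice whose deletion was made in fat.

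Among the ligands, Tgfb3, an isoform best known from palate closure, was at 17.3, 3.07, 24.5 and 19.6 TPM in the KO hearts A25, A29, A30 and A31, against 2.84, 4.53, 4.54 and 3.84 TPM in WT hearts. Tgfb2, an isoform needed for heart and valve development, was at 7.79, 1.36, 15.2 and 10.04 TPM in KO hearts, against 0.838, 2.35, 2.64 and 2.85 TPM in WT hearts. For both genes A25, A30 and A31 were above every WT heart and A29 was among them. Tgfb1, the isoform most often studied in fibrosis, was at 7.84, 5.13, 21.3 and 8.63 TPM in KO hearts, against 4.63, 9.26, 9.41 and 10.1 TPM in WT hearts. A30 alone was above the WT hearts for Tgfb1, and the other KO hearts overlapped them.

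With all 8 hearts no ligand passed the threshold, an adjusted p under 0.05 by limma with Benjamini-Hochberg adjustment over all genes. Across all genes tested in heart the log2 fold change had a median of 0.26 with all 8 hearts and of 0.39 without A29, so changes are also given after subtracting that median. Tgfb3 had a log2 fold change of 1.53 (SE 0.49), or 1.27 relative to the median, with adjusted p = 0.142 by limma. Without A29 Tgfb3 had 2.12 (SE 0.21), or 1.74 relative to the median, with adjusted p = 9e-05 by limma. A29 was left out because it lacked such differences, which favours small p-values. Values without A29, here and below, thus describe A25, A30 and A31 and are no independent test. Tgfb2 had 1.36 (SE 0.52, adjusted p = 0.158 by limma) with all hearts and rose by 1.93 (SE 0.31, adjusted p = 0.00114 by limma) without A29, or 1.10 and 1.54 relative to the median. Tgfb1 had 0.20 (SE 0.38, adjusted p = 0.763 by limma) with all hearts and 0.45 (SE 0.36, adjusted p = 0.348 by limma) without A29. Relative to the median it stood at -0.06 with A29 and at 0.06 without it.

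Among the receptors, Tgfbr1, the type I receptor kinase ALK5, was at 11.8, 3.01, 15.4 and 12.01 TPM in the KO hearts A25, A29, A30 and A31, against 3.53, 5.49, 4.59 and 3.95 TPM in WT hearts. Tgfbr2, the type II kinase that binds ligand first, was at 17.2, 7.35, 27.9 and 19.8 TPM in KO hearts, against 7.15, 10.9, 13.4 and 11.9 TPM in WT hearts. Both were above every WT heart in A25, A30 and A31, and for Tgfbr1 A29 was the lowest of all 8 hearts. Tgfbr3, or betaglycan, a co-receptor that presents the TGF-beta2 protein to the kinase receptors, was at 3.93, 5.79, 8.03 and 3.99 TPM in KO hearts, against 5.02, 10.06, 9.65 and 9.64 TPM in WT hearts. The KO hearts were below A7, A8 and A14 but overlapped the WT heart A5.

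No receptor passed with all 8 hearts. Tgfbr1 had a log2 fold change of 0.94 (SE 0.40, adjusted p = 0.181 by limma), or 0.68 relative to the median, and without A29 rose by 1.39 (SE 0.20, adjusted p = 0.000665 by limma), or 1.00 relative to the median of all genes. Tgfbr2 had 0.58 (SE 0.36, adjusted p = 0.319 by limma), or 0.33 relative to the median, and without A29 rose by 0.94 (SE 0.24, adjusted p = 0.0137 by limma), or 0.55 relative to the median. Tgfbr3 had -0.58 (SE 0.29, adjusted p = 0.235 by limma), and -0.62 (SE 0.30, adjusted p = 0.129 by limma) without A29, or -0.84 and -1.01 relative to the median. With median-of-ratios scaling in place of the fixed TPM total, and without A29, Tgfbr3 fell by 1.06 (adjusted p = 0.000616 by limma).

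Among the latent binding proteins, Ltbp2, which joins microfibrils but is not known to bind latent TGF-beta, was at 19.9, 0.316, 49.95 and 18.3 TPM in the KO hearts A25, A29, A30 and A31, against 0.110, 0.604, 0.836 and 0.527 TPM in WT hearts. A25, A30 and A31 stood far above all other hearts, and A29 stood within the WT range. Their mean of 29.4 ± 17.8 TPM (SD, n = 3, without A29) was 56.6 times the WT mean of 0.519 ± 0.303 TPM (SD, n = 4), and without A30 as well the KO mean was 19.1 TPM and the ratio 36.8. On the log2(TPM + 1) scale the difference was 3.10 (SE 0.87, adjusted p = 0.142 by limma) with all hearts, or 2.85 relative to the median, and 4.20 (SE 0.34, adjusted p = 3.37e-05 by limma), or 3.81 relative to the median, without A29. A gene that passes the filter through its high group alone has to differ, so these values describe the hearts more than they test them. In WT hearts Ltbp2 was the lowest of the 10 genes, and in KO hearts it had the second highest mean. That rank was not shared by each KO heart: Ltbp2 was above the next gene, Tgfbr2, in 2 of 4. In A29 it was the lowest of the 10.

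Ltbp4, which helps to assemble elastic fibres and is the most abundant member in heart, was at 44.05, 34.4, 158 and 33.2 TPM in KO hearts, against 23.5, 78.8, 88.01 and 80.0 TPM in WT hearts. Ltbp1, which tethers all 3 latent ligands to the matrix, was at 4.80, 6.53, 12.1 and 6.80 TPM in KO hearts, against 7.21, 13.7, 11.3 and 9.52 TPM in WT hearts. Ltbp3, another carrier of latent ligand, was at 8.70, 2.97, 29.8 and 8.18 TPM in KO hearts, against 2.37, 6.47, 6.90 and 6.998 TPM in WT hearts. A30 was the highest KO heart for all 3 genes, and only for Ltbp3 were A25, A30 and A31 all above the WT hearts. None of them passed with all hearts or without A29 on the deposited scale: without A29, Ltbp4 had 0.03 (SE 0.57), Ltbp1 -0.41 (SE 0.30) and Ltbp3 1.15 (SE 0.46, adjusted p = 0.0730 by limma), or -0.36, -0.80 and 0.76 relative to the median. With all hearts their values relative to the median were -0.43, -0.71 and 0.44. With median-of-ratios scaling and without A29, Ltbp1 fell by 0.87 (adjusted p = 0.00548 by limma).

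**Figure D1:**
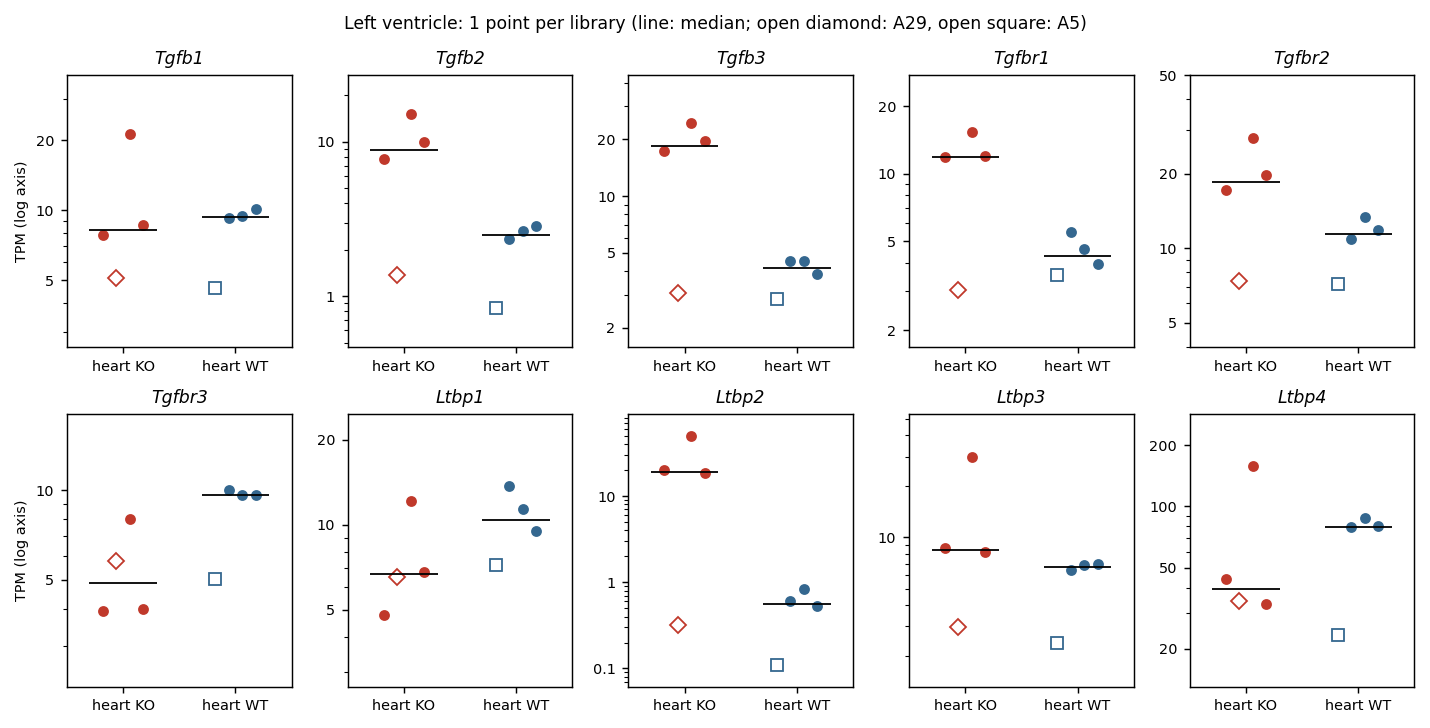
TPM of each member in the 8 left ventricle libraries, on a log axis with KO at the left and WT at the right of each panel; points are libraries and lines are group medians. The filled KO points (A25, A30 and A31) lie above all WT points for Tgfb2, Tgfb3, Tgfbr1, Tgfbr2, Ltbp2 and Ltbp3, the open diamond (A29) lies near the open square (WT heart A5), and Tgfbr3 is lower in A25 and A31.

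In all, 0 of 10 members were called higher or lower with all 8 hearts, where limma called 0.0501% of all tested genes higher and 0% lower (6 genes and no gene). At an unadjusted p under 0.05 there were 4 members, against 24.6% of all genes. No member had groups that did not overlap, against 3.71% of all genes not overlapping and higher and 0.634% not overlapping and lower. Without A29, 5 of 10 were higher and 0 were lower, against a background of 34.8% of all genes higher and 4.16% lower. Also without A29, 6 of 10 did not overlap and were higher (the 5 and Ltbp3) and 0 were lower, against 45.3% and 3.65% of all genes, so the members' counts were not far from the background. The median log2 fold change of the members was 0.64 with all hearts, against 0.26 for all genes, and 1.04 without A29, against 0.39. With median-of-ratios scaling and without A29, 5 were higher and 2 lower (Tgfbr3 and Ltbp1), against 19.5% and 20.9% of all genes. Array weights, which keep all 8 hearts but give outlying libraries less weight, called the same 5 higher and Tgfbr3, Ltbp1 and Ltbp4 lower, against 43.1% of all genes higher and 22.7% lower. In that fit A25 had a weight of 7.26, and the other hearts had weights between 0.103 and 3.19. Over the 16 alternatives the limma adjusted p ran between 9.9e-07 and 0.425 for Ltbp2, between 2.08e-06 and 0.425 for Tgfb3, between 2.84e-05 and 0.426 for Tgfb2, between 2.45e-05 and 0.453 for Tgfbr1 and between 0.0022 and 0.589 for Tgfbr2. In bulk tissue, fewer or more cells of a type and less or more RNA per cell cannot be told apart.

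**Figure D2:**
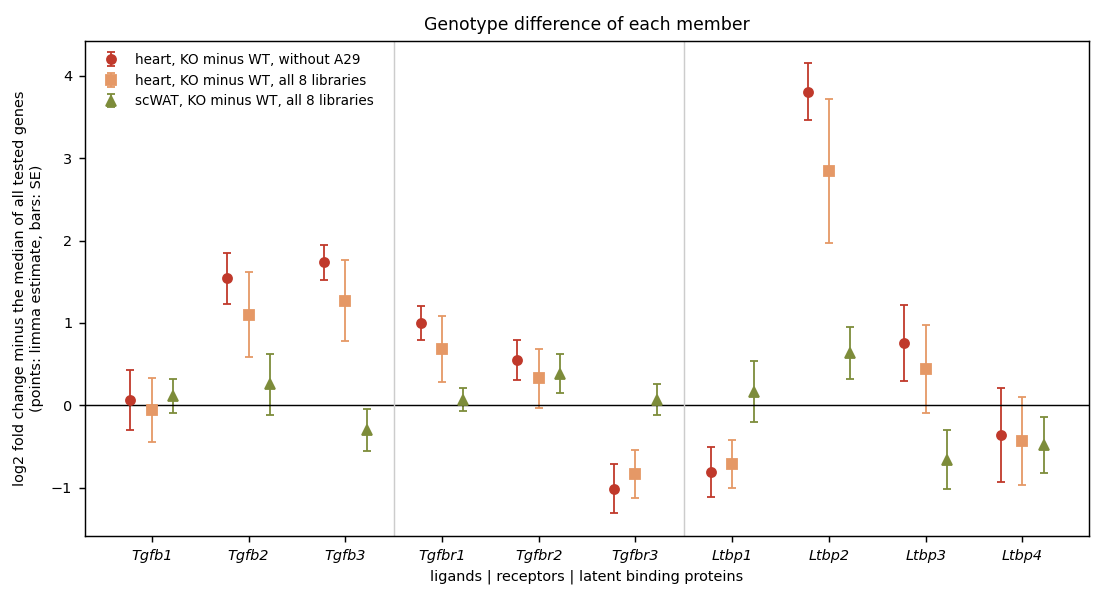
Log2 fold change of each member (KO minus WT, limma estimate with its SE as bar) after subtracting the median of all tested genes, for heart without A29 (circles), heart with all 8 libraries (squares) and scWAT with all 8 libraries (triangles). Ltbp2 in heart reaches 3.81 without A29 and 2.85 with it, Tgfbr3 and Ltbp1 lie below 0 in heart, and the scWAT values stay between -0.66 and 0.64.

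The make-up of each subfamily also differed. Tgfb1 gave 22.5% to 34.9% of the summed ligand TPM in A25, A30 and A31 and 53.6% in A29, against 55.7% to 60.2% in WT hearts. Tgfb3 gave 40.2% to 52.6% in those 3 KO hearts and 32.1% in A29, against 22.8% to 34.2% in WT hearts. Thus Tgfb1 was the leading ligand transcript in every WT heart and in A29, and Tgfb3 was in A25, A30 and A31. Among receptor transcripts Tgfbr3 gave 11.2% to 15.6% in A25, A30 and A31 and 35.8% in A29, against 31.9% to 38.0% in WT hearts. Tgfbr1 gave 29.998% to 35.8% in A25, A30 and A31 and 18.6% in A29, against 15.5% to 22.5% in WT hearts. Ltbp2 gave 19.98% to 27.5% of the latent binding protein TPM in A25, A30 and A31 and 0.714% in A29, against 0.333% to 0.781% in WT hearts. Mitochondrially encoded transcripts took 46.2%, 55.7%, 43.4% and 48.9% of TPM in the KO hearts A25, A29, A30 and A31, against 51.9% to 60.6% in WT hearts, so A25, A30 and A31 were below every WT heart there too. A share among members is not changed by how much of a library those transcripts take. These shares are descriptions with no test.

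**Figure D3:**
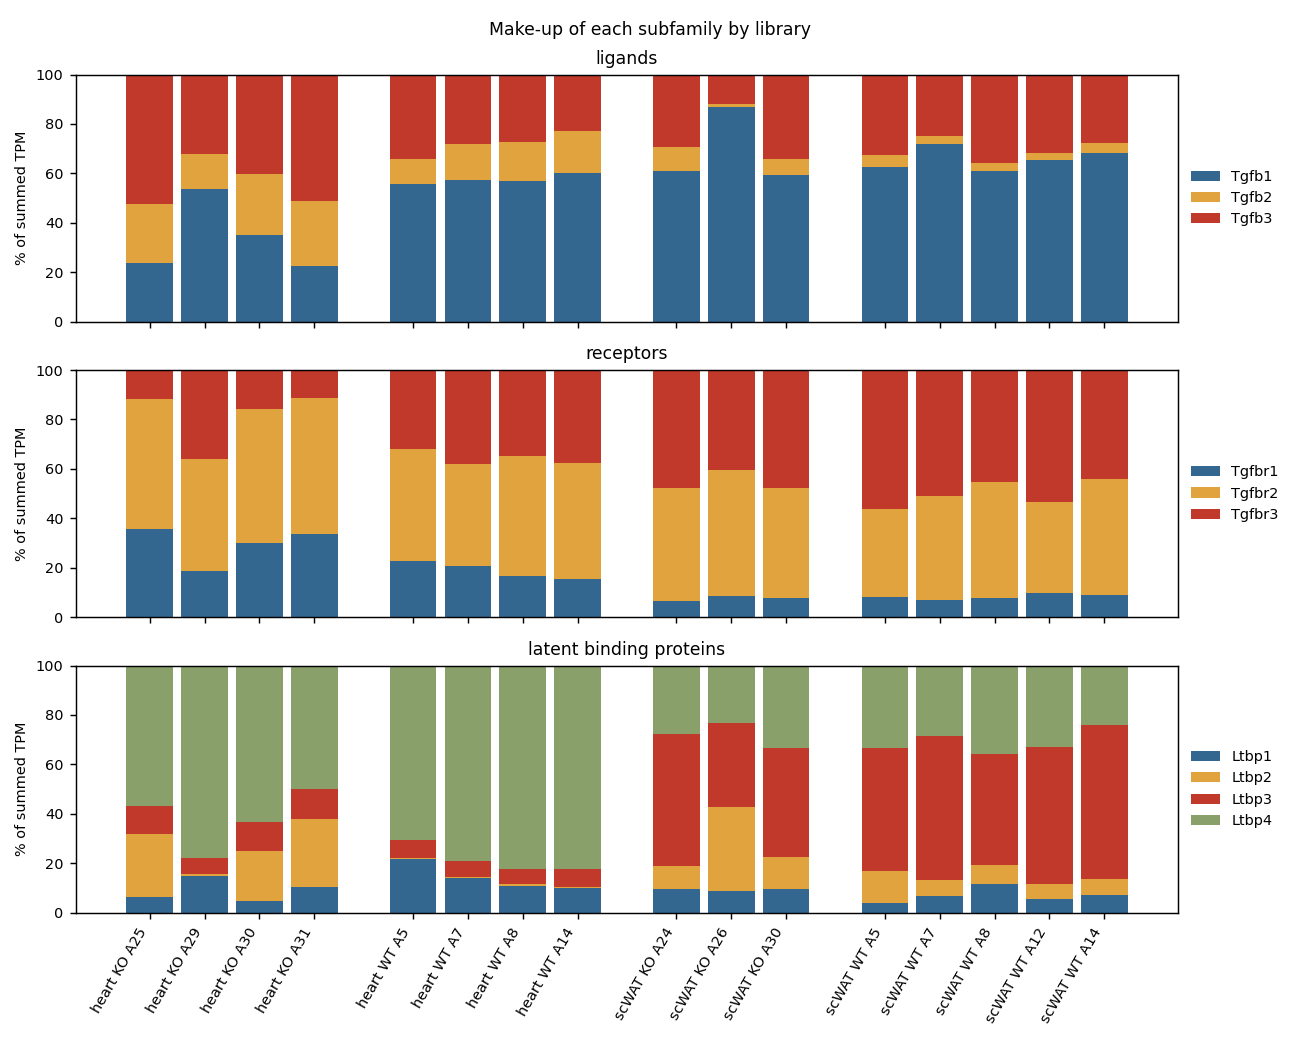
Share of each member in the summed TPM of its subfamily (percent, stacked to 100), 1 bar per library with KO left of WT in each tissue; panels are ligands, receptors and latent binding proteins. Tgfb3 replaces Tgfb1 as the widest ligand band in the KO hearts A25, A30 and A31. In these hearts the Tgfbr3 band is narrow (11.2% to 15.6%), and Ltbp2 takes 19.98% to 27.5%. In scWAT Tgfb2 gives 9.71% in A24, 6.45% in A30 and 1.01% in A26, against 2.94% to 4.74% in WT. A26 has the widest Tgfb1 and Ltbp2 bands in scWAT.

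Several lists of cell type markers also separated A25, A30 and A31 from the other hearts. With all 8 hearts no marker of the lists below was called. The counts without A29 stand against 34.8% of all genes higher and 4.16% lower. With median-of-ratios scaling they stand against 19.5% and 20.9%. The 10 fibroblast markers summed to 1186, 287, 1597 and 1423 TPM in the KO hearts A25, A29, A30 and A31, against 237 to 355 TPM in WT hearts, and 9 of the 10 were called higher without A29. Macrophage markers summed to 1216, 147, 1262 and 1507 TPM in KO hearts, against 152 to 241 TPM in WT hearts, and 10 of 10 were called higher without A29. Markers of activated fibroblasts summed to 1314, 59.4, 1519 and 1738 TPM in KO hearts, against 59.8 to 102 TPM in WT hearts, and 8 of 8 were called higher without A29. These 3 lists were at WT levels in A29. Platelet markers, whose cells carry much TGF-beta1 protein, summed to 54.6, 14.9, 52.3 and 66.7 TPM in KO hearts, against 12.3 to 23.1 TPM in WT hearts, but without A29 only 1 of the 3 tested was called higher, with a median log2 fold change of 0.33. Without A29, 4 of 8 endothelial and 4 of 6 smooth muscle markers were called higher, and with median-of-ratios scaling 0 and 2 were higher and 3 and 2 lower. Of 8 cardiomyocyte markers 1 was higher and 3 lower without A29 (6 lower with that scaling), with a median of -0.47, or -0.86 relative to all genes. The part of these cells in the members' levels was not tested.

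Set against the fibroblast markers of the same library, the members parted into groups. Per 1000 TPM of summed fibroblast markers, Tgfb3 was at 14.6, 10.7, 15.4 and 13.8 TPM in the KO hearts A25, A29, A30 and A31, against 11.96, 13.3, 12.8 and 11.6 TPM in WT hearts. Tgfb2 was at 6.57, 4.75, 9.49 and 7.06 TPM by the same measure in KO hearts, against 3.53, 6.93, 7.43 and 8.57 TPM in WT hearts. The groups thus overlapped for Tgfb2. For Tgfb3 A25, A30 and A31 were still above every WT heart, but the nearest values lay close together (13.8 and 13.3 TPM). By this measure Ltbp2 was at 16.8, 1.10, 31.3 and 12.8 TPM in KO hearts, against 0.465, 1.78, 2.36 and 1.58 TPM in WT hearts. Ltbp2 thus remained higher in A25, A30 and A31 than in any other heart. Tgfbr2 was at 14.5, 25.7, 17.5 and 13.9 TPM per 1000 in KO hearts, against 30.2 to 37.8 TPM in WT hearts, and Tgfbr1 at 8.44 to 10.5 TPM, against 11.9 to 16.2 TPM, so the order of the groups was the reverse of that in plain TPM for the 3 KO hearts. Dcn, Col1a1 and Col1a2, which are on the fibroblast list, are matrix genes of the pathway itself, and the ratio, calculated after the levels had been seen, shows unequal change and not which term changed.

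**Figure D4:**
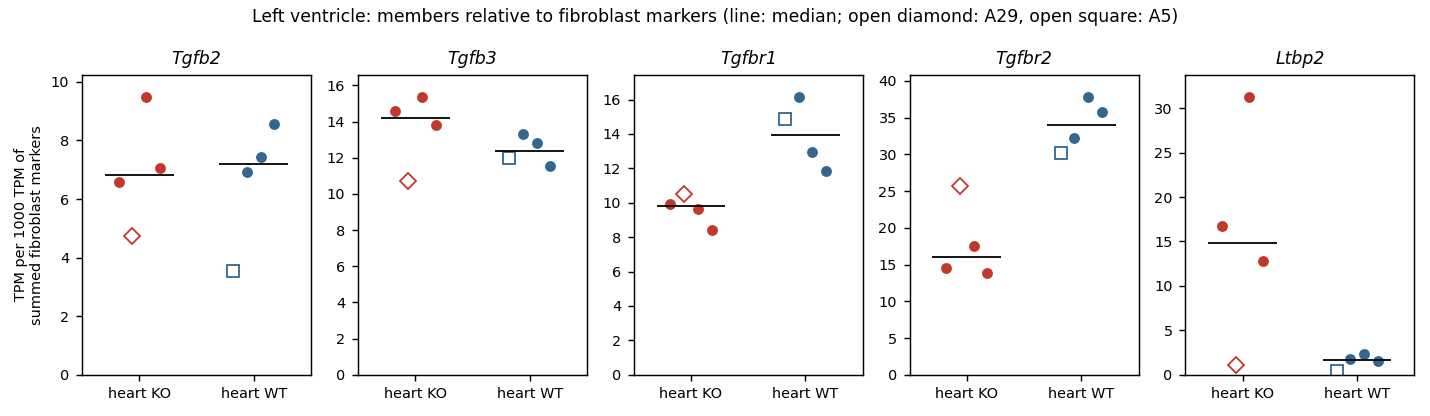
TPM of 5 members per 1000 TPM of summed fibroblast markers (10 genes) in the 8 left ventricle libraries, with KO at the left and WT at the right of each panel, points for libraries and lines for medians. Tgfb3 lies between 10.7 and 15.4 in all 8 hearts, with A25, A30 and A31 above the WT hearts. Ltbp2 is at 12.8 or above in A25, A30 and A31 and at 2.36 or below in the others. Tgfbr1 and Tgfbr2 are lower in KO hearts than in WT hearts.

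The rest of the pathway was read from lists, whose counts without A29 stand against 34.8% of all genes higher and 4.16% lower, and with median-of-ratios scaling against 19.5% and 20.9%. Of 22 genes that anchor or activate latent TGF-beta, 18 were tested, and without A29 14 were higher and 0 lower, and 13 and 1 (Itgb6) with that scaling. Aspn, a small proteoglycan that binds TGF-beta1 protein, was at 92.97, 11.9, 98.2 and 133 TPM in the KO hearts A25, A29, A30 and A31, against 10.4 to 13.7 TPM in WT hearts (without A29, log2 fold change 3.09, SE 0.18, adjusted p = 6.07e-06 by limma). Fmod, a related proteoglycan, was at 9.63, 0.0639, 9.28 and 8.90 TPM in KO hearts, against 0.110 to 0.733 TPM in WT hearts (without A29, log2 fold change 2.95, SE 0.20). Of 16 intracellular signalling genes, 7 were higher and 0 lower without A29, and 4 and 1 (Tab1) with that scaling, so they were near the background. Their median change of 0.36 was close to the 0.39 of all genes. Skil, a SMAD corepressor that is itself induced by the pathway, was at 9.57, 3.92, 12.4 and 11.3 TPM in KO hearts, against 2.46 to 5.48 TPM in WT hearts (without A29, log2 fold change 1.24, SE 0.25). Pmepa1, an inhibitor of SMAD signalling, was at 22.3, 5.29, 36.6 and 20.8 TPM in KO hearts, against 5.46 to 11.1 TPM in WT hearts (without A29, log2 fold change 1.59, SE 0.28). Each of these genes was higher in A25, A30 and A31 than in any WT heart. A29 lay within the WT range for Aspn and Skil and below it for Fmod and Pmepa1.

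Of 23 commonly cited target genes, 22 were tested, and without A29 20 were higher and 0 lower, with a median log2 fold change of 2.49 against 0.39 for all genes. With median-of-ratios scaling 18 of the 21 tested were higher and 0 lower. Lox, a lysyl oxidase that cross-links collagen, was at 24.6, 0.477, 51.8 and 40.7 TPM in KO hearts, against 0.478 to 1.24 TPM in WT hearts (without A29, log2 fold change 4.52, SE 0.28, adjusted p = 7.61e-06 by limma). Timp1, a metalloproteinase inhibitor, was at 117, 0.9002, 173 and 206 TPM in KO hearts, against 0.736 to 2.71 TPM in WT hearts (without A29, log2 fold change 6.08, SE 0.30). Ctgf, named after its values had been seen, was at 317, 10.4, 317 and 211 TPM in KO hearts, against 15.4 to 44.9 TPM in WT hearts (without A29, log2 fold change 3.1997, SE 0.316). These targets respond to other signals as well. Of 26 other ligands, receptors and antagonists of the superfamily, 15 were tested, and 6 were higher and 0 lower without A29. With median-of-ratios scaling 13 were tested, and 4 were higher and 2 lower (Inha and Acvr1b), so this list too was near the background. Inhba, the activin A subunit, was at 2.43, 0.444, 3.39 and 5.19 TPM in KO hearts, against 0.191 to 0.302 TPM in WT hearts (without A29, log2 fold change 1.89, SE 0.21). Fstl3, an antagonist of activins, was at 8.21, 1.35, 11.7 and 7.89 TPM in KO hearts, against 1.10 to 2.27 TPM in WT hearts (without A29, log2 fold change 1.82, SE 0.23). Like Ltbp2, Fmod, Inhba, Lox and Comp, another of the targets, had WT means under 1 TPM and were tested through their KO hearts. The counts of their lists thus include genes that had to differ. The lists were also chosen with earlier results of these data known, so their counts are descriptions and no independent support. With all 8 hearts, no gene of these 4 lists passed.

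In scWAT no member passed the test. Limma called 0 of 10 higher or lower, and 0 at an unadjusted p under 0.05 (15.6% of all genes), where 0.0146% of all tested genes were called higher and 0.00731% lower. The groups overlapped for every member, against 5.23% of all genes not overlapping and higher and 5.06% not overlapping and lower. The members' median log2 fold change was 0.13, against 0.03 for all genes.

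Tgfb1 was at 23.5, 41.2 and 24.2 TPM in KO scWAT, against 26.1, 33.1, 24.4, 22.3 and 24.01 TPM in WT scWAT (log2 fold change 0.15, SE 0.21, adjusted p = 0.734 by limma). Tgfb2 was at 3.73, 0.479 and 2.64 TPM in KO scWAT, against 1.98, 1.41, 1.22, 1.01 and 1.53 TPM in WT scWAT. For Tgfb2, A24 and A30 were above all WT libraries and A26 below all of them, which left a log2 fold change of 0.29 (SE 0.37, adjusted p = 0.708 by limma), and of 0.78 (SE 0.24, adjusted p = 0.328 by limma) without A26. Tgfb3 was at 11.2, 5.75 and 14.1 TPM in KO scWAT, against 13.7, 11.5, 14.4, 10.9 and 9.70 TPM in WT scWAT, with A26 the lowest library.

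Tgfbr2 was at 60.8, 58.6 and 57.3 TPM in KO scWAT, against 38.4, 50.9, 62.6, 27.9 and 46.6 TPM in WT scWAT (log2 fold change 0.42, SE 0.23, adjusted p = 0.389 by limma). The KO libraries lay within 4 TPM of each other and above all WT libraries but A8. Tgfbr3 was at 63.5, 46.8 and 61.7 TPM in KO scWAT, against 60.4, 61.9, 60.6, 40.9 and 43.9 TPM in WT scWAT. Tgfbr1 was at 8.70, 9.66 and 10.1 TPM in KO scWAT, against 8.88, 8.43, 10.3, 7.49 and 8.72 TPM in WT scWAT, and its log2 fold change of 0.11 had the smallest error of the 10 members (SE 0.14).

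Ltbp2, the member furthest apart between KO and WT hearts, was at 21.2, 36.1 and 30.3 TPM in KO scWAT, against 33.5, 16.001, 17.7, 11.2 and 15.4 TPM in WT scWAT (log2 fold change 0.67, SE 0.31, adjusted p = 0.339 by limma). The KO libraries were above all WT libraries but A5. Ltbp3, the most abundant member in scWAT, was at 121, 36.3 and 106 TPM in KO scWAT, against 128, 136, 98.9, 99.9 and 147 TPM in WT scWAT (log2 fold change -0.63, SE 0.36, adjusted p = 0.403 by limma). Ltbp4 was at 62.7, 24.6 and 80.6 TPM in KO scWAT, against 85.1, 66.4, 79.8, 59.4 and 56.2 TPM in WT scWAT. Ltbp1 was at 21.8, 9.19 and 23.3 TPM in KO scWAT, against 10.04, 15.3, 25.3, 9.51 and 16.9 TPM in WT scWAT. A26 was the lowest of the 8 libraries for all 3 of these genes, and without it the log2 fold changes were -0.09 for Ltbp3, 0.05 for Ltbp4 and 0.61 for Ltbp1.

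**Figure D5:**
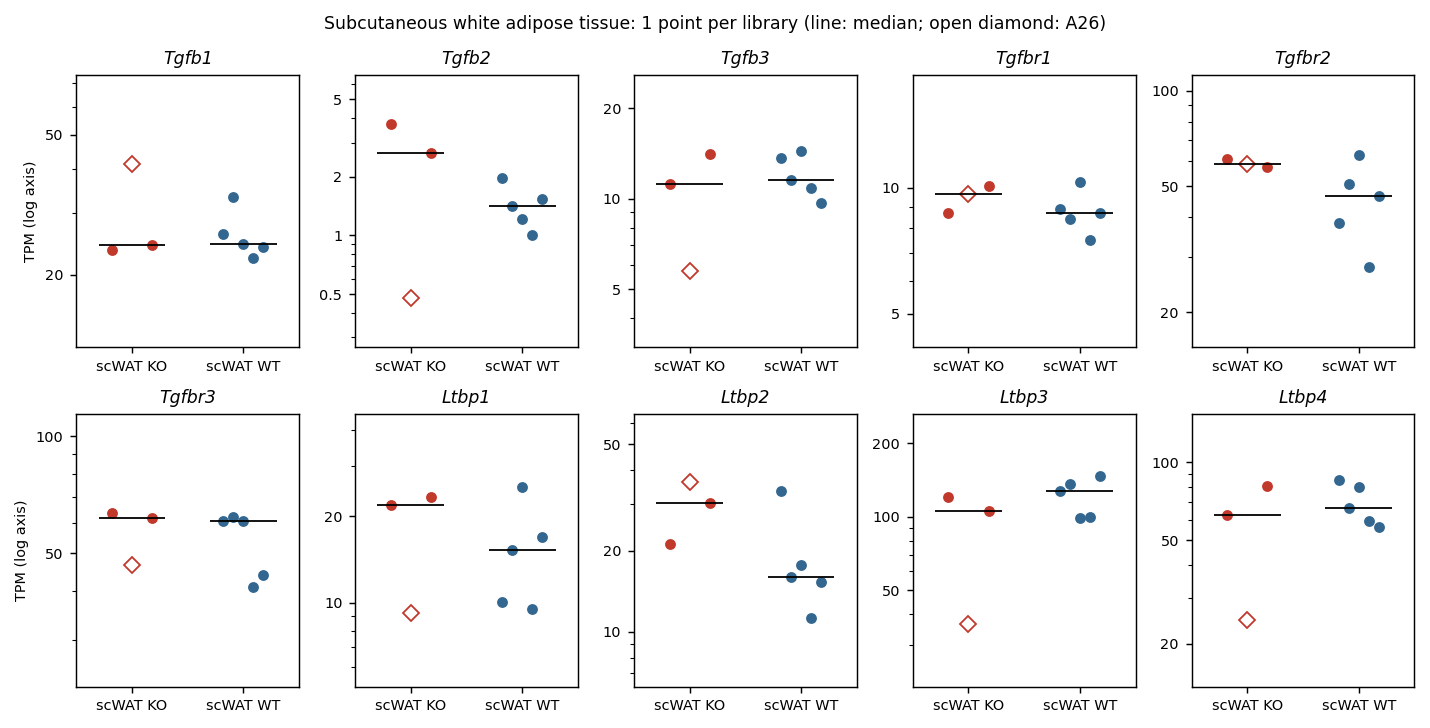
TPM of each member in the 8 scWAT libraries, on a log axis with KO at the left and WT at the right of each panel; points are libraries and lines are group medians. The groups overlap in all 10 panels, and the open diamond (A26) is the lowest point for Tgfb2, Tgfb3, Ltbp1, Ltbp3 and Ltbp4 and the highest for Tgfb1 and Ltbp2.

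Fibroblast markers summed to 3806, 1145 and 3023 TPM in the KO libraries A24, A26 and A30, against 2509 to 3794 TPM in WT scWAT, so A26 was also lowest there. Per 1000 TPM of these markers, Ltbp3 was at 31.7, 31.7 and 35.0 TPM in KO scWAT, against 31.4 to 50.3 TPM in WT scWAT, and A26 no longer stood apart. Tgfb1 by the same measure was at 6.16, 36.0 and 8.02 TPM in KO scWAT, against 6.33 to 10.3 TPM in WT scWAT, and A26 was far above the others. Skeletal muscle markers summed to 4554, 350 and 9088 TPM in KO scWAT, against 56.1 to 978 TPM in WT scWAT. The part of these cells in the members' levels was not tested.

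No gene of the 4 pathway lists passed in scWAT. The lowest p-values were those of Acta2, smooth muscle actin, at 47.2, 31.7 and 157 TPM in KO scWAT, against 129 to 359 TPM in WT scWAT (log2 fold change -1.84, SE 0.50, adjusted p = 0.216 by limma), and of Fkbp1a, a protein that keeps the type I receptor inactive, at 209, 166 and 227 TPM, against 249 to 377 TPM (log2 fold change -0.62, SE 0.18, adjusted p = 0.220 by limma). Fkbp1a did not overlap between the groups, as 5.06% of all genes did not and were lower. Its log2 fold change was -0.49 (SE 0.19) without A26, and in heart without A29 it was 0.95 (SE 0.16, adjusted p = 0.00139 by limma). Skil did not overlap either, as 5.23% of all genes did not and were higher. It was at 8.35, 17.2 and 10.5 TPM in KO scWAT, against 5.77 to 7.60 TPM in WT scWAT. Its log2 fold change was 0.75 (SE 0.22, adjusted p = 0.220 by limma), on the same side as in heart. Without A26, its highest library, it was 0.48 (SE 0.17, adjusted p = 0.409 by limma). Both genes were named for their small p-values, so their lack of overlap is a description. The median log2 fold change of the 23 target genes was -0.33 in scWAT, and -0.10 without A26.

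Whether the KO minus WT difference itself differed between heart and scWAT was tested with an interaction term over all 16 libraries. With A29 included 0 of 10 members passed (2 at an unadjusted p under 0.05, against 20.5% of all genes), where 0.00867% of all tested genes were higher in heart than in scWAT by this measure and 0.052% lower. The largest values were 2.43 (SE 1.06, adjusted p = 0.206 by limma) for Ltbp2 and 1.79 (SE 0.61, adjusted p = 0.130 by limma) for Tgfb3. Leaving out A29, which lacked the differences of the other KO hearts, gave no independent test. Without A29, 5 of 10 were higher and 0 lower, against 22.4% and 2.27% of all genes. Ltbp2 then had 3.52 (SE 0.49, adjusted p = 0.000225 by limma), Tgfb3 2.39 (SE 0.34, adjusted p = 0.000257 by limma), Tgfbr1 1.28 (SE 0.23, adjusted p = 0.0013 by limma), Tgfb2 1.64 (SE 0.49, adjusted p = 0.0237 by limma) and Ltbp3 1.77 (SE 0.62, adjusted p = 0.0491 by limma). Ltbp2 passed the filter in heart through its high KO hearts alone, so its value describes the hearts more than it tests them. Ltbp3 was called in 1 of the 23 alternatives here and in none of those for heart alone. Its scWAT log2 fold change was -0.63 with A26 and -0.09 without A26. Over the 23 alternatives the adjusted p ran between 5.61e-05 and 0.370 for Ltbp2 and between 8.42e-05 and 0.274 for Tgfb3. Tgfbr2 did not pass in either fit, with 0.51 (SE 0.35) without A29.

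Between the tissues of WT mice, on the TPM scale, heart held less than scWAT of most members, as of most genes. In WT hearts Ltbp4 led at 67.6 ± 29.7 TPM (SD, n = 4), followed by Tgfbr2 at 10.9 ± 2.67 TPM, Ltbp1 at 10.4 ± 2.76 TPM, Tgfbr3 at 8.59 ± 2.39 TPM, Tgfb1 at 8.36 ± 2.52 TPM, Ltbp3 at 5.69 ± 2.22 TPM, Tgfbr1 at 4.39 ± 0.851 TPM, Tgfb3 at 3.94 ± 0.801 TPM, Tgfb2 at 2.17 ± 0.910 TPM and Ltbp2 at 0.519 ± 0.303 TPM. Only Ltbp4 and Tgfbr2, and Tgfb2 and Ltbp2, were neighbours in this order whose ranges over hearts did not overlap. In WT scWAT Ltbp3 led at 122 ± 21.6 TPM (SD, n = 5), followed by Ltbp4 at 69.4 ± 12.6 TPM, Tgfbr3 at 53.5 ± 10.2 TPM, Tgfbr2 at 45.3 ± 13.1 TPM, Tgfb1 at 25.98 ± 4.22 TPM, Ltbp2 at 18.8 ± 8.58 TPM, Ltbp1 at 15.4 ± 6.39 TPM, Tgfb3 at 12.04 ± 1.95 TPM, Tgfbr1 at 8.77 ± 1.03 TPM and Tgfb2 at 1.43 ± 0.366 TPM. There only Ltbp3 and Ltbp4, and Tgfbr1 and Tgfb2, were neighbours that did not overlap.

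By limma, 7 of 10 members were lower in WT heart than in WT scWAT and 0 were higher, against a background of 78.5% of all genes lower and 8.12% higher. The members' median was -1.48, and that of all genes -1.27. Mitochondrially encoded transcripts took 51.9% to 60.6% of TPM in WT hearts, against 6.14% to 14.4% in WT scWAT. The largest differences were those of Ltbp3, -4.26 (SE 0.26, adjusted p = 1.28e-08 by limma), and Ltbp2, -3.63 (SE 0.27, adjusted p = 8.63e-08 by limma), which were -3.00 and -2.37 relative to the median. Tgfb2, Ltbp4 and Ltbp1 did not pass, at 0.34, -0.18 and -0.47, and relative to the median they stood at 1.61, 1.083 and 0.80. With median-of-ratios scaling 4 were higher (Tgfb2, Tgfbr1, Ltbp1 and Ltbp4) and 4 lower (Tgfbr2, Tgfbr3, Ltbp2 and Ltbp3), against 33.1% and 34.2% of all genes. The direction of Tgfbr1, Ltbp1 and Ltbp4 thus depended on the scale, while Ltbp3, Ltbp2, Tgfbr3 and Tgfbr2 were lower in heart on both. Of the WT mice 4 gave both tissues, and the fit with the mouse as a replicate block leaves out A12, which gave scWAT alone. In it 8 were lower, Ltbp1 added (log2 fold change -0.61, adjusted p = 0.0213 by limma). Without A12 and with no block Ltbp1 passed as well (adjusted p = 0.0495 by limma).

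The genes whose log2(TPM + 1) followed a member most closely over the 8 hearts, among 7364 genes averaging 5 TPM or more, were Loxl2 for Ltbp2 (Pearson r = 0.997), Col5a2 for Tgfb3 (0.998), Ctps for Tgfb2 (0.997), Thbs1 for Tgfbr1 (0.996), Rasa3 for Tgfbr2 (0.998), Tbx20 for Tgfb1 (0.995) and Ulk1 for Tgfbr3 (0.998). For Ltbp2 and Tgfb3 these r rest largely on A25, A30 and A31 standing apart from the other 5 hearts. Among the members, Tgfb3 followed Ltbp2 (0.992) and Tgfbr1 (0.990), while Tgfbr3 followed Ltbp1 (0.898). Over the 8 scWAT libraries, among 10037 genes, the closest were Serpinf1 for Ltbp3 (0.991), Cdc42ep1 for Ltbp4 (0.989), Nqo1 for Tgfb3 (0.988) and Gfpt2 for Tgfbr2 (0.985). These likenesses are descriptions over libraries of both genotypes, with no test.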

How the data were processed

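Frozen left ventricle and scWAT were extracted with Trizol and made into Illumina TruSeq libraries, per the labels' protocols. The authors deposited TPM per gene symbol, 1 table per library, per the file headers, and each table sums to 1e+06 TPM. The aligner, quantifier, annotation and build were not given in the sources used here. Depth is unknown, so no counting interval can be given. A fixed total means that a rise of some transcripts lowers all others. Within a group every library is a separate mouse, per the labels.

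Groups came from the genotype and tissue labels. TPM was analysed as log2(TPM + 1), which understates changes of low genes, on genes averaging 1 TPM or more, with limma 3.58.1 in R 4.3.3 (lmFit and eBayes with trend). Tests were 2-sided with Benjamini-Hochberg adjustment over all tested genes and a threshold of 0.05. Each tissue was fitted alone, WT heart was fitted against WT scWAT, and an interaction term of tissue and genotype was fitted over 16 libraries. The code was tested on simulated data. Pathway genes were named as up to 4 per list with the smallest p in the tissue, of which some are described, and likeness was Pearson's r. The members and the lists were chosen with earlier results of these data known. Mouse numbers pair tissues of the same animal: over 10970 genes, deviations of the 4 WT pairs (A5, A7, A8 and A14) correlated at 0.0799, 0.0388, 0.130 and 0.173. The highest correlation of each heart with the scWAT of another of these mice was 0.0843, 0.0261, -0.00785 and -0.0111. For A5 this was above its own.

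Alternatives were a pseudocount of 0.25, median-of-ratios scaling, no filter or 1 at 5 TPM, removal of mitochondrially encoded genes, array weights, the style of the library names in scWAT, each library left out, and the mouse as a replicate block. Leaving out A29 together with another scaling was added after seeing the data. Promoters were matched by symbol to RefSeq sequences of build GRCm38.p6.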

Additional observations from a re-analysis of the deposited data

Results flagged for a closer look

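The WT heart A5 was the lowest WT heart by a wide gap for 4 members, by Dixon's test at the 95% level. The ratio is the gap to the nearest library over the range of the group, both on the log2(TPM + 1) scale. Tgfb1 was at 4.626 TPM there, against 9.26 to 10.1 TPM in the other 3 WT hearts (ratio 0.880). Tgfbr3 was at 5.017 TPM, against 9.64 to 10.06 TPM (ratio 0.936). Ltbp3 was at 2.374 TPM, against 6.47 to 6.998 TPM (ratio 0.921). Ltbp4 was at 23.452 TPM, against 78.8 to 88.01 TPM (ratio 0.916). In all, 30 gene and group pairs were examined, and chance marks about 1 in 20 groups. KO scWAT, with 3 libraries, was left out of this test, so A26 was not examined. A5 also had the highest share of mitochondrially encoded transcripts of all hearts, 60.6%, and the part of that share in its low values was not tested.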

How the results depend on the processing

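In heart KO against WT, 5 members were higher without A29, and leaving out each library in turn gave 0 to 5 higher and 0 lower. Array weights gave 5 higher and 3 lower, median-of-ratios scaling with A29 left out 5 and 2, and removal of mitochondrially encoded genes with A29 left out 5 and 1. Tgfb1 turned to -0.094 with median-of-ratios scaling, -0.17 with array weights and -0.0084 with that scaling and no A29, and ran from -0.17 (without A30) to 0.45 (without A29) with 1 library left out, with -0.029 without A5. Ltbp4 ran from -0.69 (without A30) to 0.048 (without A31), with 0.0056 without A8 and 0.031 without A29.

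In scWAT no alternative called a member. With 1 library left out, Tgfb1 ran from -0.11 (without A26) to 0.29, Tgfb2 from -0.054 (without A24) to 0.78, Tgfb3 from -0.51 to 0.0705 (without A26), Ltbp1 from -0.022 (without A30) to 0.61 and Ltbp4 from -0.78 to 0.053 (without A26). Tgfb1 turned to -0.10 with array weights, and Ltbp1 to -0.068 within the plain library names.

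In WT heart against WT scWAT, 4 were higher and 4 lower with median-of-ratios scaling, 2 higher without mitochondrially encoded genes and 1 higher with array weights. Leaving out each library gave 0 to 1 higher (1 without the heart of A5) and 7 to 8 lower (8 without A12). Tgfbr1, Ltbp1 and Ltbp4 turned to 0.39, 0.88 and 1.25 with median-of-ratios scaling and to 0.0038, 0.48 and 0.82 without mitochondrially encoded genes. Ltbp4 turned to 0.20 with array weights and ran from -0.36 to 0.26 (without the heart of A5) with 1 library left out. With the mouse as a replicate block, a fit that also leaves out A12, 8 were lower (Ltbp1 added at -0.61), as without A12 and with no block.

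In the difference between tissues, array weights gave 3 higher and 2 lower, and leaving out each library gave 0 to 5 higher (5 without A29) and 0 lower. Tgfb1 turned to -0.21 with median-of-ratios scaling, -0.16 without mitochondrially encoded genes and -0.098 with array weights. It ran from -0.32 (without the heart of A30) to 0.31, with -0.18 without the heart of A5 and -0.038, -0.089 and -0.066 without the scWAT of A7, A24 and A30. Tgfbr2 turned to -0.094 with that scaling and -0.038 without mitochondrially encoded genes, and ran from -0.0825 (without the heart of A30) to 0.51, with -0.0072 without the heart of A5. Ltbp4 turned to -0.018 with that scaling and -0.77 with array weights, and ran from -0.25 (without the heart of A30) to 0.61, with -0.17 without the heart of A5 and -0.23 without A26. The replicate block, with a consensus correlation of -0.0435 between tissues of a mouse, changed no call there.

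No paired analysis was possible within a tissue because KO and WT libraries share no mouse. The cause of these changes was not tested. With 3 to 5 mice a group, no visible loss of Elavl1 and unknown depth, changes of low members such as Tgfb2, and of Ltbp2 in WT heart, are the least certain. The members' calls in heart rest on leaving out or down-weighting A29.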
